A study of Homo sapiens with 15 samples.

Results

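For each gene, the expression change in HCT116 cells given thymoquinone (TQ) and 5-fluorouracil (5-FU) together (Combi) was set against the sum of the changes given by each drug alone. The quantity is a log2 contrast per gene, Combi minus TQ minus 5-FU plus control, here called the sum contrast. A value of 0 means that Combi lay where the log2 changes of both single drugs added up, a positive value that it lay above that sum and a negative value that it lay below. It was taken over the endogenous genes of the panel with at least 20 raw counts in at least 3 of the 15 samples, which left 584 of 730 genes, called the members. HCT116 is an established human colorectal cancer epithelial line, so all results are from 1 line in culture. The 4 groups used held 3 samples each: cells left untreated (control), 40 µM TQ, 15 µM 5-FU, and Combi with 35 µM TQ and 35 µM 5-FU, all collected after 24 h. Another group of 3 samples received 35 µM SARB, the hybrid molecule of TQ and 5-FU, and shared the fit. Relative to the single treatments the mixture was thus lower in TQ and higher in 5-FU, so the sum contrast compares Combi with the sum at other doses, and departure from a sum cannot be told apart from the change of dose. The labels do not say whether the 3 samples of a group came from separate cultures, so the p-values measure only the spread between these samples.

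5-FU is a fluoropyrimidine that blocks thymidylate synthase and is built into RNA and DNA, and in cells with intact p53, such as HCT116, it is known to induce p53 target genes. TQ is a quinone from black cumin that reacts with thiols, and electrophiles of this kind are known to set off the heat shock and oxidative stress responses. When 2 treatments act on a gene through separate routes, their fold changes multiply, which is a sum on the log2 scale. A gene that both treatments push towards one ceiling or floor falls short of that sum.

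Values are scaled counts, the raw NanoString counts divided by a factor per sample taken from the 40 housekeeping genes, whose geometric mean is thereby made equal. The endogenous counts summed to between 135017 and 607782 per sample over the 12 samples. The 8 negative probes averaged between 11.7 and 20.6 scaled counts per sample in control and between 3.55 and 7.65 in TQ. In 5-FU they averaged between 8.39 and 13.9, and in Combi between 7.25 and 14.6. Background was thus lower in TQ than in control, so a gene near it can appear lowered by TQ and above the sum. How much of any sum contrast came from this was not tested. The samples ran on 3 cartridges, and these follow the groups: control 1 and all TQ and 5-FU samples ran on the first, controls 2 and 3 and Combi 1 on the second, and Combi 2 and 3 on the third. Among 8 epithelial markers, all of them members, the summed level was between 5036 and 6615 scaled counts in control, between 5861 and 5997 in TQ, between 16332 and 17348 in 5-FU and between 14675 and 16268 in Combi. Among 10 blood cell markers, 4 were members, and the summed level of the 10 was between 208 and 395 scaled counts in every sample of these groups. In a bulk lysate fewer cells that express a gene and less RNA per cell cannot be told apart.

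Combi departed from the sum in both directions. A gene is called above or below the sum where edgeR's quasi-likelihood test gave a p of 0.05 or less after Benjamini-Hochberg adjustment over all 730 genes and the departure was at least 1.5-fold. Of the 584 members, 179 (30.7%) were above the sum and 52 (8.9%) below it, beside 29.2% and 7.12% of all 730 genes. The median sum contrast of the members was 0.48, with 5th and 95th percentiles of -0.90 and 2.33. The scaling sets this balance. After TMM normalization, which centres the bulk of the endogenous genes, the median was -0.10 and 72 members were above and 123 below the sum (11.6% and 16.8% of all 730 genes). The housekeeping genes themselves had sum contrasts from -1.35 to 1.69 with a median of -0.08. No member turned from one direction to the other between the scalings. TMM lowered the contrasts as a whole, so this is no test of the calls. The members above in both scalings are those above after TMM, and the members below in both are those below after housekeeping scaling. The 72 members above and the 52 below in both scalings (11.6% and 7.12% of all 730 genes held such a call) are described from here on, and counts in lists are given for both.

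**Figure D1:**
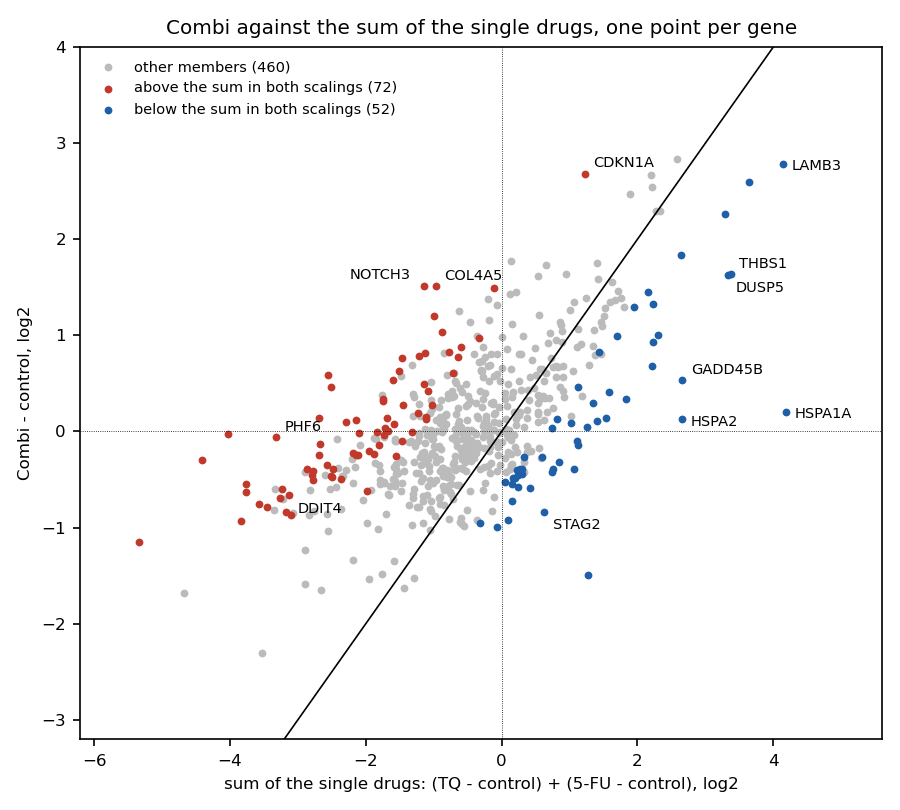
Each point is 1 of the 584 members, with the sum of the log2 changes of TQ and 5-FU against control on the x axis and the log2 change of Combi against control on the y axis, both after housekeeping scaling. The solid diagonal is equality, the 72 red points lie above the sum and the 52 blue points below it in both scalings, and most red points lie near 0 on the y axis and left of 0 on the x axis.

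Among the members below the sum with a group mean of at least 50 scaled counts, the 3 lowest were stress-response genes that TQ raised and for which Combi was not called against control. Heat shock proteins of the HSP70 family are chaperones, and HSF1 induces some of them when proteins misfold. HSPA1A, the main stress-inducible HSP70, had 27.7, 21.2 and 30.3 scaled counts in control, 416, 253 and 329 in TQ, 26.9, 45.2 and 44.5 in 5-FU and 17.0, 33.2 and 36.5 in Combi. The Combi samples overlapped the control samples, although the mixture held TQ at 35 µM, and every TQ sample was far above both. Its sum contrast was -3.99 ± 0.62 (SE; edgeR adjusted p = 6.01e-05), the lowest of all members. Probes for HSPA1A can share signal with its near-identical neighbour HSPA1B, so the values stand for either gene or both. HSPA2, another HSP70 gene, had 29.4, 16.6 and 16.8 scaled counts in control, 120, 70.9 and 85.3 in TQ, 30.5, 30.6 and 30.6 in 5-FU and 20.4, 21.6 and 25.8 in Combi. Again TQ stood alone above all other samples, and the sum contrast was -2.54 ± 0.48 (SE; edgeR adjusted p = 0.000361). For both HSP70 genes the control samples lay close to the negative probes, which averaged 11.7 to 20.6 scaled counts in control. The size of both contrasts thus depends on counts near background. GADD45B, a stress-inducible partner of stress kinases, had 209, 135 and 141 scaled counts in control, 774, 585 and 662 in TQ, 214, 251 and 274 in 5-FU and 233, 210 and 259 in Combi, with a sum contrast of -2.13 ± 0.23 (SE; edgeR adjusted p = 1.31e-06).

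**Figure D2:**
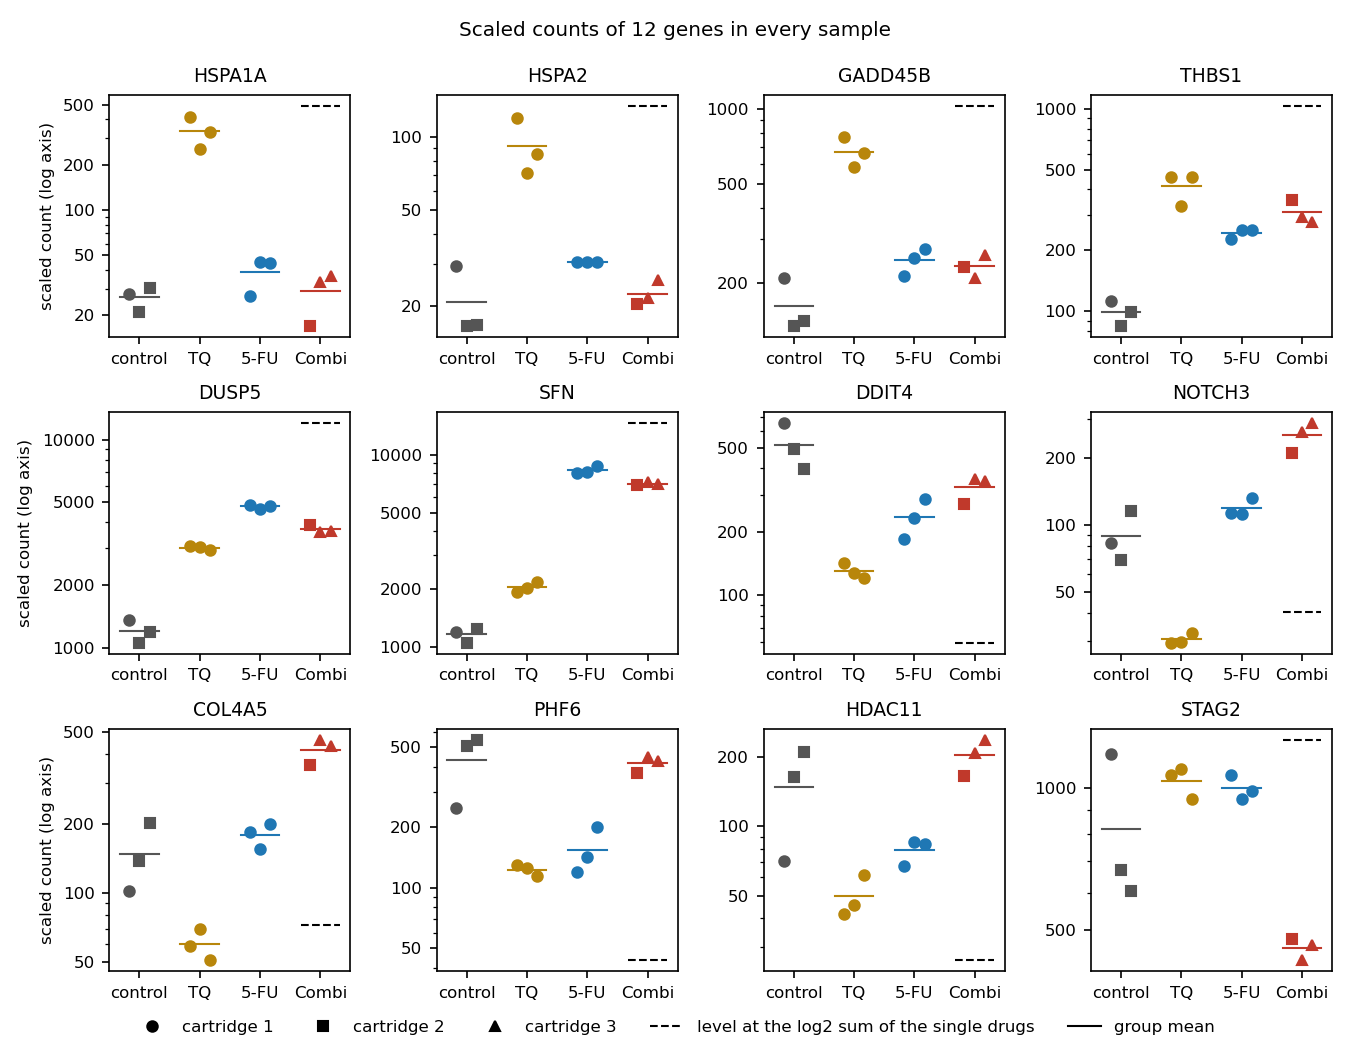
Scaled counts on a log axis for 12 genes in each control, TQ, 5-FU and Combi sample, where the marker shape gives the cartridge, the solid line the group mean and the dashed line the level at which Combi would equal the log2 sum of the single drugs. HSPA1A, HSPA2 and GADD45B are highest in TQ, NOTCH3 and COL4A5 are highest in Combi, and control 1 stands apart from controls 2 and 3 for PHF6, HDAC11 and STAG2.

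The promoters of both HSP70 genes are shown because HSF1 binds inverted GAA repeats, and these genes moved together. RefSeq (GRCh38.p14) places the 250 bases before the HSPA1A start at chr6:31815293-31815542 and those before the HSPA2 start at chr14:64540491-64540740, both on the plus strand, and matches to GAANNTTC or TTCNNGAA are in capitals.
HSPA1A: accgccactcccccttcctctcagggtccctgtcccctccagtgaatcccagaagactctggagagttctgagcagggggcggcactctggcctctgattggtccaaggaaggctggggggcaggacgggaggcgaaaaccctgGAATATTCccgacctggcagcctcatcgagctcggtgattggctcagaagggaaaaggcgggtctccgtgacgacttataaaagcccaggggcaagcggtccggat
HSPA2: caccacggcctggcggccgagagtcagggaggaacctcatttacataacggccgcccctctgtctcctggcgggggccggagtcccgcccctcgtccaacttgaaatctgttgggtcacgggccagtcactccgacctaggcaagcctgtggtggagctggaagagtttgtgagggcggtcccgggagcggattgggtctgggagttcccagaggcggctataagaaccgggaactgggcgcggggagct
HSPA1A held 1 match, beginning at -106 from the start, and HSPA2 held none in this window. Both motifs read the same on either strand. RefSeq promoters were found for 443 of the 584 members. A match was present in 11.7% of all 27305 promoters of that length, in 10.2% of those of the members, in 11.5% of the 52 found for genes above the sum and in 10.3% of the 39 found for genes below it.

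Of the 9 members of the heat shock and stress list, these 3 were below the sum in both scalings and DDIT4 was above it. The list had a median of -0.25 against 0.48 over all members, and -0.83 against -0.10 after TMM. HSPA6, a strictly inducible HSP70, was at -0.86 and was not called. The chaperone HSPB1 was at 0.09 and the endoplasmic reticulum stress factor DDIT3 at 0.11, neither called.

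DDIT4 was the 1 member that kept its call with cartridge as a block. It encodes REDD1, a stress-induced inhibitor of mTORC1. Its scaled counts were 655, 493 and 398 in control, 142, 128 and 121 in TQ, 186, 233 and 288 in 5-FU and 270, 355 and 350 in Combi. Both single drugs lay below every control sample, and so did Combi, but the mixture was above every TQ sample rather than below both drugs. The sum would put Combi at 59.6 scaled counts against a measured mean of 325 ± 47.5 (SD, n = 3). The sum contrast was 2.47 ± 0.29 (SE; edgeR adjusted p = 2.21e-06), and with the cartridge block it was 3.10 (edgeR adjusted p = 0.00461).

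Genes that both drugs raised formed the next group below the sum. THBS1, a matrix glycoprotein and p53 target, had 112, 84.7 and 99.2 scaled counts in control, 460, 332 and 462 in TQ, 228, 253 and 252 in 5-FU and 356, 292 and 277 in Combi, and its sum contrast was -1.74 ± 0.23 (SE; edgeR adjusted p = 1.2e-05). DUSP5, a nuclear phosphatase that ERK signalling induces and that switches ERK off, had 1358, 1054 and 1189.9 scaled counts in control, 3087, 3045 and 2942 in TQ, 4862, 4641 and 4819 in 5-FU and 3874, 3583 and 3646 in Combi. For both genes the mean of the mixture lay between those of the single drugs, and every Combi sample was above every control. The sum would put DUSP5 at 12028 scaled counts, and its sum contrast was -1.70 ± 0.15 (SE; edgeR adjusted p = 1.56e-07). On the linear scale, where the added counts rather than the folds are summed, the expectation was 6598, still above the measured mean of 3701 ± 153 (SD, n = 3). LAMB3, a laminin-332 chain, averaged 87.4 ± 16.0 scaled counts in control, 205 ± 33.6 in TQ, 655 ± 39.2 in 5-FU and 604 ± 49.9 in Combi (SD, n = 3 each), with a sum contrast of -1.36. LAMA5, another laminin chain, was at -1.31. CIC, a transcriptional repressor that ERK signalling relieves, had 96.9, 63.5 and 65.5 scaled counts in control, 157, 127 and 92.1 in TQ, 214, 242 and 174 in 5-FU and 94.3, 135 and 127 in Combi, so Combi stayed below every 5-FU sample, at -1.53 ± 0.32 (SE; edgeR adjusted p = 0.000999).

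Of the 52 members below the sum in both scalings, TQ alone had raised 17 and 5-FU alone 25, with 12 raised by both and 22 changed by neither. As background, 3.42% of all 730 genes were called higher than control in TQ and 10.1% in 5-FU. High single-drug values help to place a gene below the sum, so these counts and those that follow describe the set and are no test. Combi was not called against control for 32 of the 52, was higher for 14 and lower for 6, beside 13.6% of all 730 genes higher and 6.58% lower. It was called lower than TQ for 20 and lower than 5-FU for 24, calls that 5.75% and 4.11% of all 730 genes held. The linear contrast had the same sign for all 52.

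Genes listed as p53-induced split between the directions. Of the 16 in this list, 5 were above and 7 below the sum, with a median of -0.31. After TMM 1 was above and 9 below, and the median was -0.89. SFN, the 14-3-3 sigma protein that holds cells in G2, had 1205, 1055 and 1250.4 scaled counts in control, 1944, 2027 and 2195 in TQ, 8029.8, 8137 and 8746 in 5-FU and 6969.9, 7208 and 7032 in Combi. Every Combi sample was below every 5-FU sample, although the mixture held more 5-FU, and the sum contrast was -1.05 ± 0.15 (SE; edgeR adjusted p = 2.42e-05). The decoy receptor TNFRSF10C had 67.5, 49.9 and 60.5 scaled counts in control, 68.5, 77.1 and 83.6 in TQ, 493, 420.4 and 419.7 in 5-FU and 323, 290.4 and 244 in Combi. It was at -1.03, and Combi was called lower than 5-FU. The TRAIL receptors TNFRSF10D (-0.70) and TNFRSF10A (-0.66) were below the sum in both scalings too, while TNFRSF10B at 0.28 was called in neither. The tumour suppressor PML (-0.71) and the receptor tyrosine kinase EPHA2 (-0.80) were below the sum as well.

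CDKN1A moved the other way. It encodes p21, the p53-induced inhibitor of cyclin-dependent kinases, and had 768, 896 and 1346 scaled counts in control, 526, 536 and 496 in TQ, 3842, 4160.3 and 5625 in 5-FU and 5847, 6877 and 6598 in Combi. TQ alone lay below every control sample and every Combi sample lay above every 5-FU sample. Its sum contrast was 1.45 ± 0.25 (SE; edgeR adjusted p = 0.000195), and 0.38 with the cartridge block. BAX (1.07), FAS (0.59), PCNA (1.05) and IGFBP3 (2.01) were above the sum after housekeeping scaling only, IGFBP3 being a member through its Combi samples alone, and MDM2, the negative regulator of p53, was at 0.02.

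**Figure D3:**
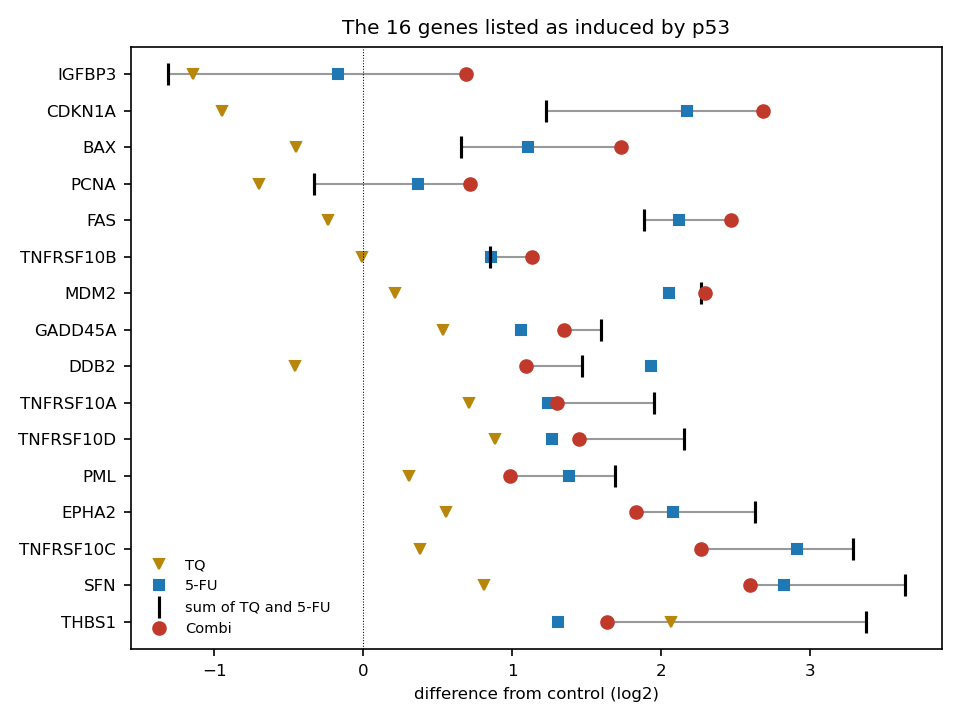
Log2 differences from control for the 16 genes listed as p53-induced, with triangles for TQ, squares for 5-FU, black ticks for their sum and circles for Combi, after housekeeping scaling. Combi lies left of the tick for THBS1, SFN and the decoy receptors and right of it for CDKN1A, BAX, FAS, PCNA and IGFBP3.

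The members above the sum were mostly genes that a single drug lowered and for which Combi was not called against control. Of the 72, TQ alone had lowered 63 and 5-FU alone 28, with 23 lowered by both. As background, 21.6% of all 730 genes were called lower than control in TQ and 10.1% in 5-FU. Low single-drug values help to place a gene above the sum, so these counts and those that follow describe the set and are no test. Combi was not called against control for 56 of the 72, was higher for 13 and lower for 3, beside 13.6% of all 730 genes higher and 6.58% lower. A missing call does not show that Combi was at the control level. It was called higher than TQ for 61 and higher than 5-FU for 26, calls that 28.4% and 7.67% of all 730 genes held. The Combi and control samples overlapped for 51, beside 22 of the 52 below the sum, and the share over all genes was not counted. The median control level of these genes was 87.4 scaled counts against 134 for all members. For 28 of the 72 the sum lay under 14.6 scaled counts, the highest negative-probe mean of a Combi sample, so that the sum itself lay below what the assay resolves. On the linear scale, the level expected for Combi (TQ plus 5-FU minus control) was under 0 scaled counts for 33, a level no count can reach.

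PHF6, a chromatin-associated PHD finger protein, led the well-measured ones. It had 251, 509 and 545 scaled counts in control, 129.8, 126 and 114 in TQ, 119.7, 142 and 202 in 5-FU and 374, 450.0 and 427 in Combi. Control 1 lay between the single-drug samples of its cartridge and the other controls, and controls 2 and 3 were above every Combi sample. The sum contrast was 3.26 ± 0.32 (SE; edgeR adjusted p = 6.72e-07) and 1.23 with the cartridge block (unadjusted p = 0.0206 in edgeR). HDAC11, the class IV histone deacetylase, had 70.9, 163 and 210.1 scaled counts in control, 41.6, 45.6 and 61.4 in TQ, 67.2, 85.1 and 83.4 in 5-FU and 165, 207 and 237 in Combi. Control 1 overlapped the 5-FU samples while controls 2 and 3 lay near the Combi samples. Its sum contrast of 2.97 ± 0.39 (SE; edgeR adjusted p = 1.2e-05) came to 0.21 with the block. The ETS factor ETV1 had a mean of 424 ± 124 scaled counts in control, 120 ± 9.79 in TQ, 175 ± 4.93 in 5-FU and 232 ± 14.5 in Combi (SD, n = 3 each), at 2.22 without and 1.35 with the block. The ubiquitin ligase adaptor SPOP was at 2.26 without and 1.48 with it.

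Some leading genes above the sum were measured close to background. MPO, the peroxidase of neutrophil granules, had 31.1, 66.5 and 79.0 scaled counts in control, 14.7, 6.78 and 18.8 in TQ, 12.2, 22.6 and 27.8 in 5-FU and 50.0, 32.1 and 40.1 in Combi, and was at 3.22 ± 0.76 (SE; edgeR adjusted p = 0.0024). Every single-drug sample was below every Combi sample and every control. Its sum was 4.75 scaled counts, under the negative-probe level named above.

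A smaller set above the sum was higher in Combi than anywhere else. For 14 of the 72, all Combi samples were above all 9 control, TQ and 5-FU samples, an order seen in 8.36% of all 730 genes. High Combi values also help to place a gene above the sum. NOTCH3, a receptor of the Notch pathway, had 83.0, 69.5 and 116 scaled counts in control, 29.4, 29.6 and 32.4 in TQ, 114, 112 and 132 in 5-FU and 211, 263 and 288 in Combi. TQ alone lowered it and the mixture raised it, and the sum contrast was 2.66 ± 0.29 (SE; edgeR adjusted p = 1.31e-06), with 2.13 under the block. COL4A5, a basement membrane collagen chain, had 102, 138 and 202 scaled counts in control, 58.8, 69.7 and 51.2 in TQ, 183, 154 and 199 in 5-FU and 358, 461 and 434 in Combi. The same order held, at 2.48 ± 0.28 (SE; edgeR adjusted p = 2.12e-06) and 0.99 under the block. CDH1, the epithelial cadherin, had 213, 229.8 and 491 scaled counts in control, 137, 116 and 152 in TQ, 308, 317 and 371 in 5-FU and 504, 574 and 558 in Combi, and was at 1.95 without and 0.54 with the block. The collagen-binding integrin ITGA2 (1.60), fibronectin FN1 (1.91), tissue plasminogen activator PLAT (2.19), the phosphatase DUSP4 (1.30) and the NF-kB inhibitor NFKBIA (1.42) belonged here too.

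For 15 of the 52 below the sum, all Combi samples were below all 9 others, an order seen in 4.52% of all 730 genes. Low Combi values also help to place a gene below the sum. STAG2, a subunit of cohesin, had 1183, 671 and 603 scaled counts in control, 1065, 1099 and 946 in TQ, 1067, 946 and 984 in 5-FU and 478, 432 and 464 in Combi. Control 1 lay with the single drugs and controls 2 and 3 lay towards Combi. Neither single drug was called, and the sum contrast of -1.47 ± 0.25 (SE; edgeR adjusted p = 0.000185) came to 0.02 with the block. DNMT1, the maintenance DNA methyltransferase, had 1890.3, 1416 and 1518 scaled counts in control, 1655, 1786 and 1653 in TQ, 1689, 1691 and 1704 in 5-FU and 1108, 907 and 918 in Combi, and its sum contrast was -0.88 without and -0.09 with the block. The cyclin-dependent kinase CDK4 was at -0.93 and 0.05, its inhibitor CDKN1B (p27) at -1.003 and 0.44, the transcription factor MYC at -0.81 and -0.47 and the histone methyltransferase SETD2 at -1.14 and -0.78, without and with the block.

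The controls ran on different cartridges and enter these values. With cartridge as a block, each single drug is set against control 1 alone and Combi 1 alone against controls 2 and 3. Of the 72 above the sum, control 1 was lower than the mean of controls 2 and 3 in 67, and of the 52 below it control 1 was higher in 45, while over all members it was lower in 364 and higher in 220. Of the 124 genes together, 61 had a difference over 0.5 (log2) between control 1 and the others, against 190 of the 584 members. Control values are part of the sum contrast that picked these sets, so the counts describe the sets and are no test. The block kept the sign of 68 of the 72 and 41 of the 52, beside 439 of all 584 members. Both fits use the same samples, so part of this agreement is built in. The medians of the 72 and the 52 came to 1.02 from 2.06 and to -0.39 from -1.003, and edgeR called 1 gene (0.137% of 730) above and none below. At an unadjusted p under 0.05 in edgeR the block left 13 of the 72 and 11 of the 52, beside 29 above and 16 below among all 584 members. Cartridge and treatment cannot be told apart for Combi 2 and 3. HSPA1A was at -4.61 with the block, GADD45B at -1.15, DUSP5 at -1.18, SFN at -0.96, LAMB3 at -1.64 and THBS1 at -1.03.

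**Figure D4:**
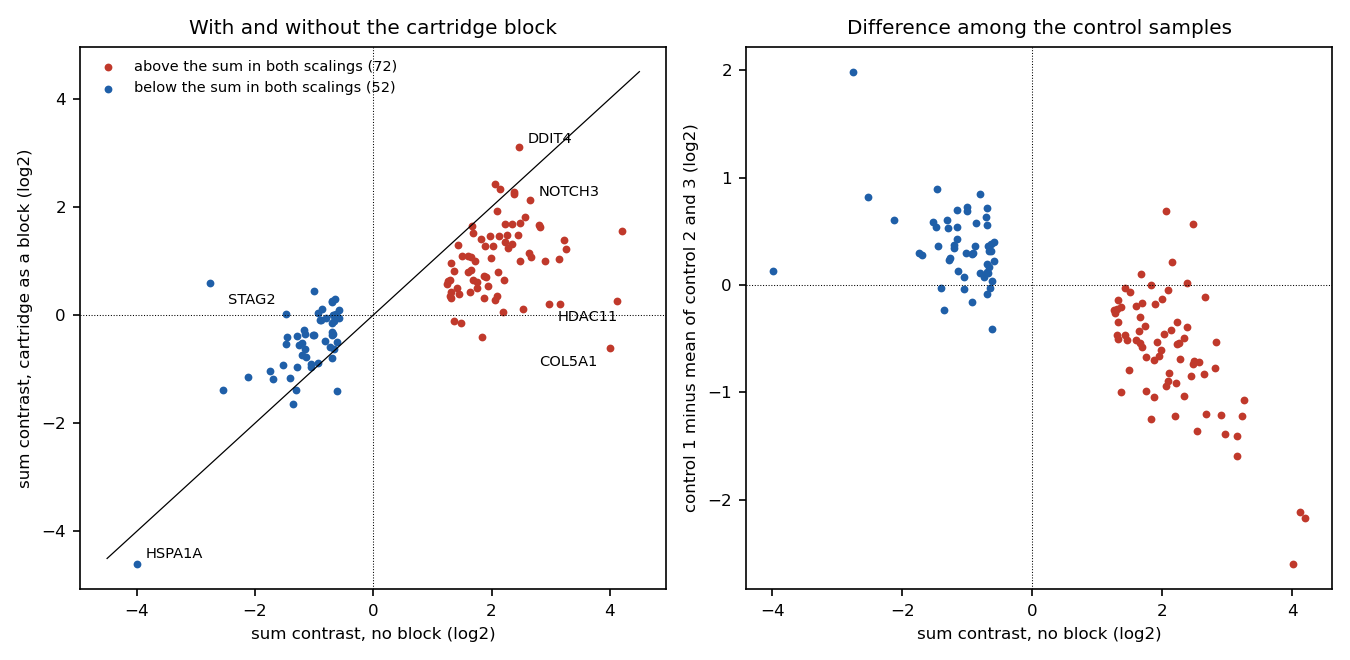
Left, the sum contrast of the 124 genes that departed from the sum in both scalings, without (x axis) and with (y axis) cartridge as a block, with a line of equality; right, the same x axis against the log2 difference between control 1 and the mean of controls 2 and 3. DDIT4, HSPA1A and NOTCH3 lie near or beyond the line, HDAC11 and STAG2 lie near 0 with the block, and 67 of 72 red points lie below 0 on the right.

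Cell cycle genes departed in both directions. Of 28 cyclins, CDKs and CDK inhibitors, 6 were above and 8 below, with a median of 0.17, and after TMM 2 were above and 13 below, with a median of -0.40. The inhibitory CDK1 kinase PKMYT1 was lowest at -1.21, the G1 cyclin CCND1 was at -1.17 and its partner CDK6 at -1.16, while the inhibitor CDKN1C (p57) was highest at 1.64. In the replication and E2F list of 20 members, 4 were above and 1 below (median 0.17), and 0 and 1 in both scalings. The 1 below was the transcription factor E2F1 at -0.74, and the highest was the clamp PCNA. In DNA damage signalling and repair, 11 of 37 were above and 2 below (median 0.24), and 2 and 2 in both scalings. FANCG, a Fanconi anaemia core protein, had 206, 178 and 173 scaled counts in control, 316, 296 and 247 in TQ, 357, 298 and 299 in 5-FU and 194, 205 and 202 in Combi. Both drugs raised it and every Combi sample was within the control range, at -1.29 ± 0.20 (SE; edgeR adjusted p = 6.05e-05). The strand-annealing factor RAD52 was highest in that list at 1.49, and at -0.15 with the block.

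Chromatin genes did so too. Of 39 members, 15 were above and 3 below (median 0.39), and 8 and 3 in both scalings. HDAC11, IDH1 (2.10), the deacetylase HDAC4 (2.05) and the acetyltransferase CREBBP (1.97) were above, and SETD2, DNMT1 and the chromatin remodeller ARID1A (-0.62) were below. In the BCL2, caspase and death receptor list, 6 of 19 were above and 4 below (median 0.46), and 1 and 4 in both scalings. The BH3-only protein BAD was the 1 above, at 1.75, and the anti-apoptotic BCL2L1 was below the sum at -0.68. BIRC3, an inhibitor of apoptosis that NF-kB induces, was at 1.88, was not called after TMM, and was at -1.89 with the block.

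Developmental signalling lists held more members above the sum than below, as the members did as a whole (179 and 52). In the WNT pathway 16 of 33 members were above and none below (median 1.06), with 8 above in both scalings and a TMM median of 0.49. Among them were the kinase GSK3B (1.75), the antagonist DKK4 (2.34), the transcription factor SOX17 (2.67) and the ligands WNT6 (2.06), WNT7A (2.23), WNT16 (2.02) and WNT2 (2.82). WNT2 had 15.6, 30.2 and 16.8 scaled counts in control, 4.90, 1.23 and 10.2 in TQ, 8.55, 14.6 and 22.2 in 5-FU and 20.4, 26.3 and 22.2 in Combi, so its value rests on counts near those of the negative probes. Low counts also lie behind DKK4, with 7, 9 and 6 raw counts in TQ, SOX17, with 9, 10 and 17, and WNT7A, with 5, 8 and 8. WNT16 had at least 117 raw counts in every sample. For GSK3B, control 1 had 194 raw counts against 400 and 436 in controls 2 and 3. In the Notch list 7 of 17 were above and 1 below (median 0.86), and 3 and 1 in both scalings. NOTCH1 was the 1 below, at -1.29, while NOTCH3 and the coactivator MAML2 (2.27) were above. In the TGF-beta, activin and BMP list 8 of 26 were above and 1 below (median 0.90), and 2 and 1 in both scalings. BMP8A was highest at 2.09, and BMP4 was the 1 below, at -0.63 and at 0.03 with the block. GLI1, the effector of Hedgehog signalling, was at 3.14 with 29.4, 63.5 and 95.8 scaled counts in control and 11.9 to 23.9 in the single-drug samples.

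The cytokine, growth factor and receptor lists did as well. Of 25 interleukins, cytokines and receptors, 7 were above and none below (median 1.35), 2 of them in both scalings, with IL22RA1 highest among those called, at 1.83 and at -0.41 with the block. Of 32 growth factor ligands, 7 were above and none below (median 0.96), 3 of them in both scalings, with FGF20 highest at 2.74. FGF20 came to -0.088, and the toll-like receptor TLR2 from 2.99 to -0.058, when counts under 20 were set to 20. Of 13 receptor tyrosine kinases, 8 were above and 1, EPHA2, below (median 0.83), and 5 and 1 in both scalings, with ALK highest at 2.57. ALK had 4, 14 and 11 raw counts in TQ and 8, 5 and 15 in 5-FU, so its value rests on low counts. In the JAK, STAT and SOCS list 3 of 11 were above and 1 below (median 0.16), and 2 and 1 in both scalings, from STAT3 at -0.66 to JAK3 at 2.21. JAK3 too was measured on low counts, with 9, 12 and 5 raw counts in TQ and 10, 12 and 15 in 5-FU.

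The kinase cascade lists had medians under those of the developmental lists. In the RAS, RAF and ERK list 5 of 20 were above and 3 below (median 0.29), and 2 and 3 in both scalings. MAPK3, which encodes ERK1, had 235, 411 and 464 scaled counts in control, 135, 142 and 145 in TQ, 219, 225 and 238 in 5-FU and 323, 366 and 408 in Combi. Control 1 lay with 5-FU and controls 2 and 3 above every Combi sample, and the sum contrast of 2.09 ± 0.29 (SE; edgeR adjusted p = 2.21e-05) came to 0.35 with the block. HRAS was lowest at -1.05. Of 13 ERK feedback genes and ETS targets, 4 were above and 2, DUSP5 and EPHA2, below (median 0.56), and 2 and 2 in both scalings. In the JNK and p38 list 1 of 12, the scaffold MAPK8IP1 (1.55), was above and 2, the scaffold MAPK8IP2 (-1.48) and the NF-kB-inducing kinase MAP3K14 (-1.40), were below (median 0.07), and 0 and 2 in both scalings. Of 16 NF-kB genes 6 were above and 1 below (median -0.10), and 1 and 1 in both scalings. Of 6 immediate-early factors none was above and 1, MYC, was below in both scalings (median 0.05). In the PI3K, AKT and mTOR list 8 of 21 were above and 2 below (median 0.37), and 2 and 2 in both scalings. The regulatory subunit PIK3R1 had 125, 83.1 and 113 scaled counts in control, 166, 154 and 152 in TQ, 143, 162 and 147 in 5-FU and 112, 57.4 and 79.7 in Combi, and was at -1.46 without and -0.40 with the block. The catalytic subunit PIK3CG, at -2.76, had 34.6, 15.1 and 5.04 scaled counts in control and 3.59 to 10.2 in Combi, and came to 0.59 with the block. Of 18 calcineurin and protein kinase A genes 4 were above and 2 below (median 0.28), and 2 and 2 in both scalings, from PRKAR2A at -0.70 to PPP2R2B at 2.90. PPP2R2B had 4, 8 and 5 raw counts in TQ and 10, 10 and 15 in 5-FU, so its value rests on low counts.

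Matrix genes lay on both sides of the sum. Of 32 laminins, integrins and matrix genes, 9 were above and 3, THBS1, LAMB3 and LAMA5, below (median 0.49), and 5 and 3 in both scalings. The fibrillar collagen COL5A1 was highest, at 4.01, with 6.92, 36.3 and 48.7 scaled counts in control, 6.17 or less in every TQ sample, 12.5 or less in every 5-FU sample and at least 19.5 in every Combi sample. Control 1 lay with the single drugs, and the value came to -0.60 with the block. Of the 8 epithelial markers 2 were above and 3 below (median 0.07), and 1 and 3 in both scalings, and of the 4 blood cell markers among the members none was called (median 1.33).

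**Figure D5:**
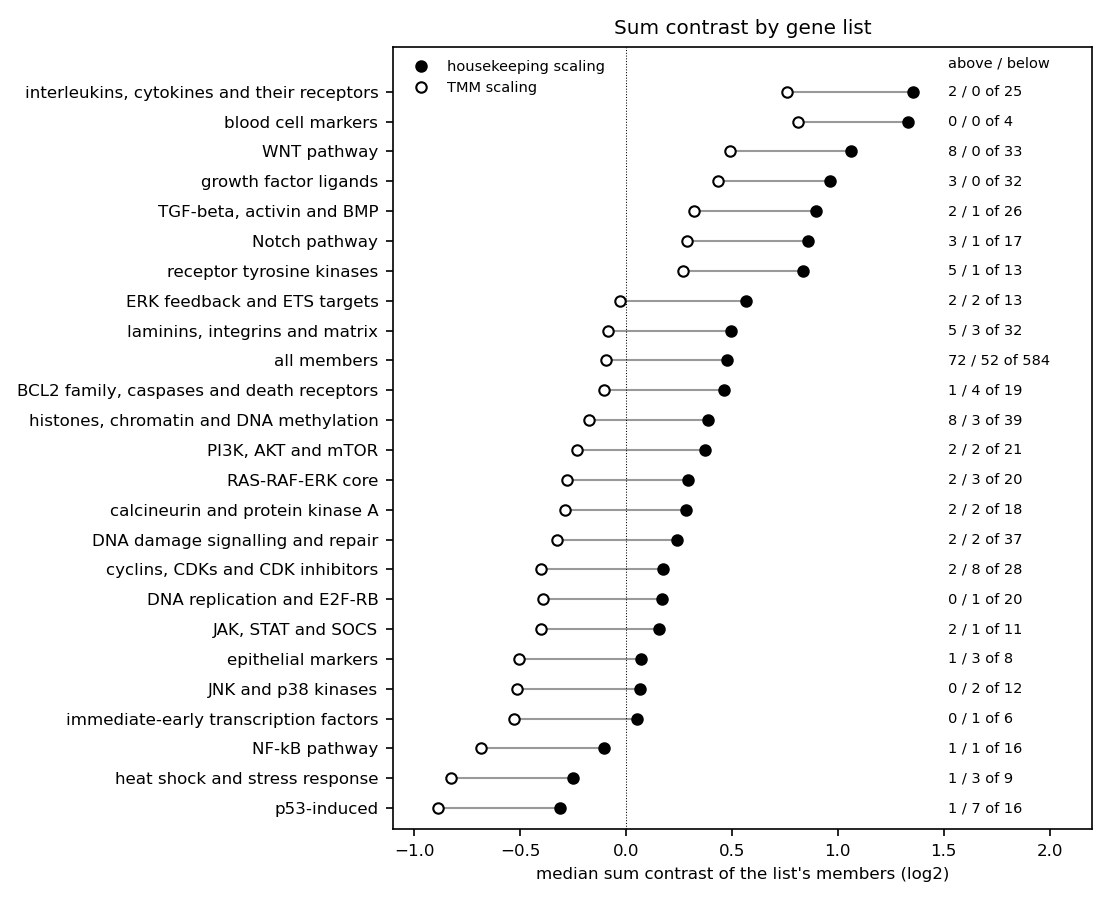
Median sum contrast of each gene list, with filled circles for housekeeping scaling, open circles for TMM, and at the right the members above and below the sum in both scalings of the list's members. The lists of secreted ligands and developmental pathways have the higher medians and the p53-induced and heat shock lists the lower ones, and the TMM median is the lower one for all 24 lists. The blood cell markers, of which none was called, have a median of 1.33. The higher lists hold genes near the negative probes, such as WNT2 and FGF20, and those probes were lower in TQ than in control. The part of this in the medians was not tested.

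Side by side with the mixture, the same contrast with SARB in place of Combi uses the same control, TQ and 5-FU samples. SARB was called above the sum for 6.71% and below it for 3.97% of all 730 genes. For HSPA1A the contrast was -4.51 with SARB, for HSPA2 -2.66, for GADD45B -2.29, for THBS1 -1.68 and for DUSP5 -1.23. For DDIT4 it was 1.90, for PHF6 2.16, for HDAC11 1.51, for NOTCH3 1.34 and for COL4A5 1.25. For STAG2 (-0.67) and DNMT1 (-0.18) SARB was not called against the sum. SARB ran on the cartridge of the single drugs and control 1.

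The count minimum was not neutral. The 22 members with exactly 3 samples of at least 20 counts had a median sum contrast of 1.43, with a range from -0.37 to 4.20, and the 35 genes left out with exactly 2 such samples had a median of 1.87, with a range from -0.70 to 3.38. For 9 members only Combi samples reached 20 counts, so that they entered through the group where they were high. Without the 9 the members above numbered 177, and 71 in both scalings.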

How the data were processed

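Expression was measured in 15 HCT116 samples with the NanoString nCounter PanCancer Pathways Panel (50 ng RNA; 730 endogenous genes, 40 housekeeping genes, 8 negative and 6 positive probes). The authors deposited raw counts, which are not normalized, and normalized values made in nSolver 3.0 with the housekeeping geometric mean, a signal from which a negative-probe background was taken. A table of the authors' fold changes and p-values was not used.

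Raw counts of the endogenous genes entered edgeR 4.0.16 (R 4.3.3; glmQLFit, glmQLFTest) as 5 groups in 1 fit, with library sizes set from the housekeeping geometric mean and no covariate. Adjustment was by Benjamini-Hochberg over 730 genes, with thresholds of 0.05 and 1.5-fold. Genes were named by these rules: the 12 highest and 12 lowest sum contrasts among members called in the same direction after TMM and with a group mean of at least 50 scaled counts, every member called with cartridge as a block, and the extremes of each gene list among those called. Some genes are not reported here. FAS, MDM2 and the other list members and examples beyond these were chosen after their values were seen. Members and gene lists were chosen with earlier results of these data known. Cartridges are those the labels give. No set test was run. Alternatives were TMM, total counts, housekeeping genes with at least 100 counts, DESeq2 1.42.0, only members in the fit, a floor of 20 counts, limma 3.58.1 on log2 of the deposited normalized signal, cartridge and replicate blocks, 4 groups only, and leaving out each of the 12 samples. TMM with the cartridge block was added after seeing the data. Promoters came from RefSeq, GRCh38.p14, for which all 584 members matched by transcript accession, or else by symbol or synonym, and 443 had a promoter.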

Additional observations from a re-analysis of the deposited data

Results flagged for a closer look

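For 14 genes edgeR called a drug's effect alone and its effect on top of the other drug in opposite directions, and also called the sum contrast, which is the difference between these effects, all in both scalings. TQ alone against TQ added to 5-FU gave CDH1 (1.95), CIC (-1.53), COL4A5 (2.48), FANCG (-1.29), HDAC11 (2.97), MAPK3 (2.09), MAPK8IP2 (-1.48), NOTCH3 (2.66), PHF6 (3.26) and SPOP (2.26). 5-FU alone against 5-FU added to TQ gave DDIT4 (2.47), GADD45B (-2.13), GLI1 (3.14), MPO (3.22), and again HDAC11 (2.97) and PHF6 (3.26). With cartridge as a block these genes were at 0.54 for CDH1, -0.92 for CIC, 0.99 for COL4A5, -0.96 for FANCG, 0.21 for HDAC11, 0.35 for MAPK3, -0.53 for MAPK8IP2, 2.13 for NOTCH3, 1.23 for PHF6, 1.48 for SPOP, 3.10 for DDIT4, -1.15 for GADD45B, 1.04 for GLI1 and 1.40 for MPO. The part of the cartridges and of the dose change in them cannot be told apart from the mixture.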

How the results depend on the processing

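The balance of the directions moved with the scaling and the calls with the cartridge block. The 179 members above and 52 below came to 72 and 123 with TMM, 51 and 130 with DESeq2's size factors, and 1 and 0 with the cartridge block, alone or with TMM. Housekeeping genes with at least 100 counts left 31 below. The median came to -0.10 with TMM, 0.21 with total counts, -0.21 with DESeq2's size factors and -0.10 with TMM and the block. Leaving out 1 sample gave 134 (without control 3) to 192 (without control 1) above, 42 to 62 below and medians of 0.44 to 0.54. With the cartridge block the named genes STAG2 (0.017), RAD52 (-0.15), BIRC3 (-1.89), IL22RA1 (-0.41), PIK3CG (0.59), COL5A1 (-0.60) and BMP4 (0.027) changed sign, and with TMM and the block HDAC11 (-0.16), MAPK3 (-0.011), MAPK8IP1 (-0.21), RAD52 (-0.52), BIRC3 (-2.25), IL22RA1 (-0.71), PIK3CG (0.23) and COL5A1 (-0.98). With counts under 20 set to 20, TLR2 (-0.058) and FGF20 (-0.088) did. The block rests on 1 Combi sample and 1 control for the single drugs, and the cause of the shifts was not tested. Same-numbered samples correlated from -0.38 to 0.44 in their deviations, over 0.1 in 6 of 18 pairs, and the main fit used no pairing. With 3 samples per group on different cartridges, this cannot show whether same-numbered samples belong together. A replicate block gave 165 above and 49 below, with a median of 0.48. Low counts limit the genes near the negative probes.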
